A study of Mus musculus with 4 samples.

Results

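The Hippo pathway and atypical cadherin genes are a set of 38 genes chosen by name, and their entries were read from 3 deposited gene lists of a Foxp1 chromatin immunoprecipitation sequencing (ChIP-seq) study of mouse kidney. All 38 are among the 21896 protein-coding genes of the RefSeq table for GRCm38.p6. In ChIP-seq, DNA bound by a protein is pulled down with an antibody and sequenced beside an input of unselected chromatin. The study set out to find genes that Foxp1, a forkhead transcription factor, may bind directly in the distal tubule, and compared neonatal littermate controls with Foxp1KspKO mice, with 1 ChIP and 1 input library per genotype. Foxp1KspKO names a deletion of Foxp1 under Ksp-cadherin (Cdh16), whose promoter drives Cre recombinase in renal tubule epithelium. The labels call the genotypes Control and Foxp1_KO. They give no floxed or Cre allele for the controls and no number of animals. All groups were kidney tubular cells collected by collagenase digestion and passage through a sieve, and a gene list from a ChIP does not measure expression, so the cell type could not be checked from its markers. The antibody field of the labels names control rabbit IgG for the control ChIP and a Foxp1 antibody for the Foxp1KspKO ChIP, whereas the description of either ChIP sample begins with FoxP1. The libraries are therefore named by the genotype in their titles, and every direction below rests on those titles.

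In the Hippo pathway, the kinases Mst1 and Mst2 (genes Stk4 and Stk3) with the scaffold Sav1 activate Lats1 and Lats2, which act with Mob1 proteins and phosphorylate the coactivators Yap and Taz (Yap1 and Wwtr1). Phosphorylated Yap and Taz stay in the cytoplasm, and unphosphorylated Yap and Taz enter the nucleus, bind Tead transcription factors and switch on genes such as Ccn1 and Ccn2. The giant atypical cadherins Fat and Dachsous bind each other between neighbouring cells. In mouse, Fat4 and Dchs1 are known to be needed for normal kidney development, and in the fruit fly the cadherins feed into Hippo signalling.

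The deposited data are a control list of 6799 genes, a Foxp1KspKO list of 4953 genes and a further list of 3482 genes that the authors call unique to the control, counted by NCBI gene number. Each gene has 1 p-value, and the deposited values lie under 0.05. A gene is called listed when it is in the list. A gene that is not listed has no value in that sheet. The targeted gene Foxp1 was in none of the lists, so its entry could not be used to check the genotype labels. No read count, fold enrichment or peak position is given, so read depth is unknown, and since each genotype has 1 ChIP library, no difference between lists could be set against replicates. Because p depends on depth as well as on enrichment, strength is also given as the rank of a gene within its own list.

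Of the 38 genes, 20 were in the control list (52.6%, against 29.0% of protein-coding genes as a whole), 12 in the Foxp1KspKO list (31.6%, against 20.9%) and 11 in the unique control list (28.9%, against 15.1%). The control and Foxp1KspKO lists together held 23 of the genes. Both lists held 9 of them (23.7%, against 13.2% of all protein-coding genes), the control list alone 11 (28.9%, against 15.7%) and the Foxp1KspKO list alone 3 (7.89%, against 7.64%), and 15 were in neither (39.5%, against 63.4%). The share listed for the Foxp1KspKO ChIP alone was thus near that of all genes. The control share stayed above that of all genes at stricter limits. At p under 0.001 it was 39.5% against 14.2%, and at p under 1e-06 it was 26.3% (10 genes) against 5.58%. The 4 genes under 1e-10 were Ptpn14, Amotl2, Frmd6 and Wwc2 (10.5%, against 2.22%). In the Foxp1KspKO list, 21.1% had p under 0.001, against 6.61%, and 1 gene had p under 1e-06 (2.63%, against 1.29%). With p-values adjusted over all protein-coding genes by the Benjamini-Hochberg method, unlisted genes at 1, 19 members had an adjusted p under 0.05 in the control list (50%, against 21.3%) and 11 in the Foxp1KspKO list (28.9%, against 10.3%). No test was run on these shares, because the genes were chosen by name with earlier results of the lists known.

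**Figure D1:**
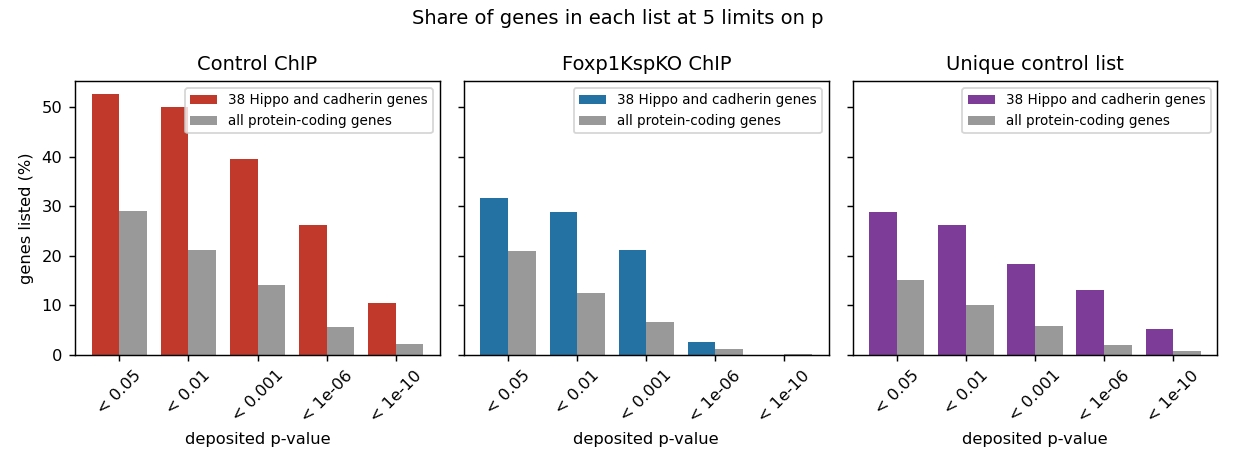
Share of the 38 Hippo pathway and cadherin genes (coloured bars) and of all 21896 protein-coding genes (grey bars) with a deposited p-value under each of 5 limits, in percent. Panels show the control ChIP and the Foxp1KspKO ChIP, each from 1 ChIP library, and the authors' unique control list. In the control panel the coloured bars fall from 52.6% to 10.5% and the grey bars from 29.0% to 2.22%, while no coloured bar is left in the Foxp1KspKO panel at the strictest limit.

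Listed members also had low p-values. Their median −log10 p was 5.84 in the control list, with a range of 1.39 to 28.9, and the median of the 6343 listed protein-coding genes was 2.95. In the Foxp1KspKO list the 12 listed members had a median of 3.31, with a range of 1.33 to 8.41, against 2.27 for 4571 listed protein-coding genes. The member nearest to the limit of 0.05 was Tead3 in the control list and Wwc2 in the Foxp1KspKO list.

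**Figure D2:**
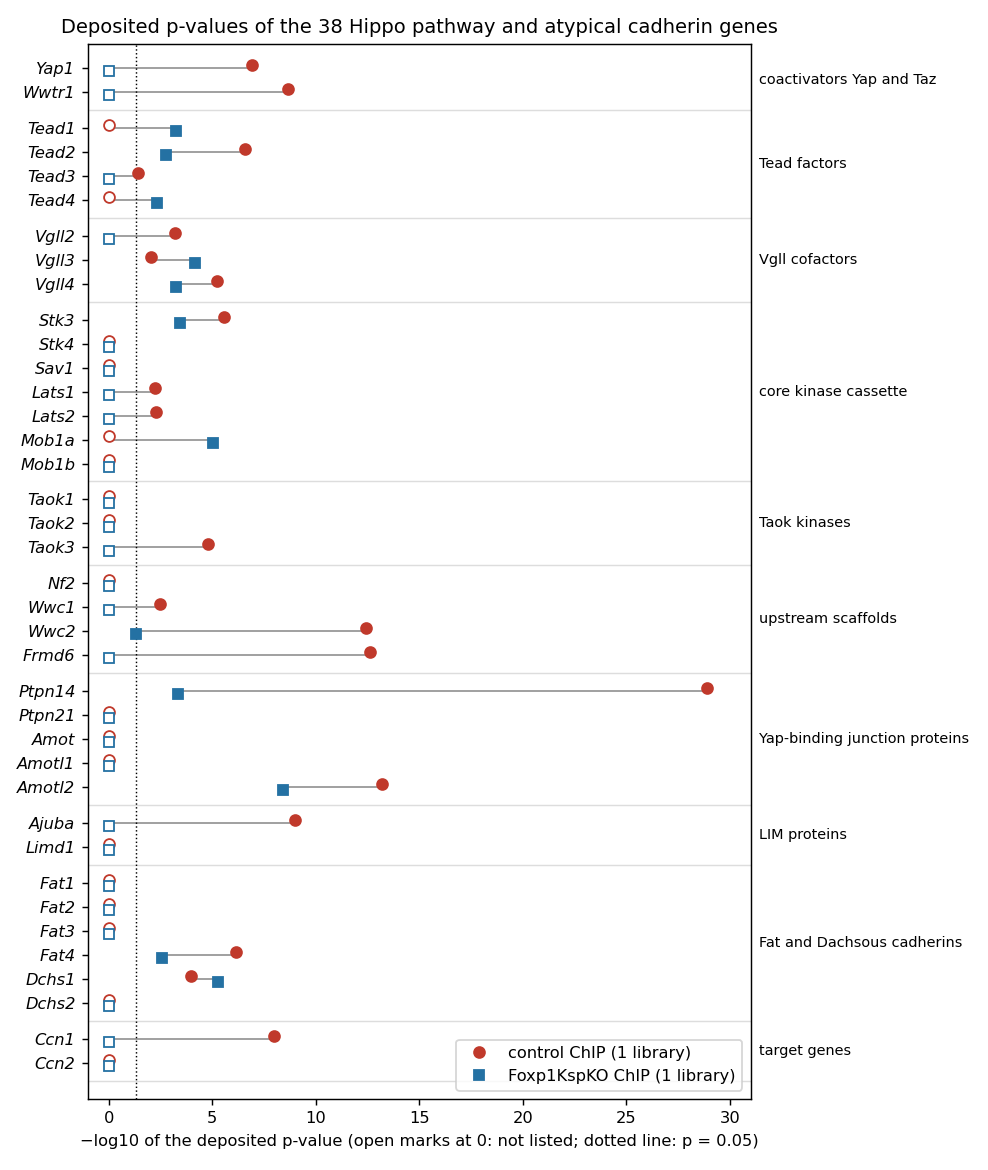
Deposited p-value of each of the 38 genes, as −log10 p on a linear axis, in the control ChIP (red circles) and the Foxp1KspKO ChIP (blue squares), grouped by role; a grey line joins the 2 values of a gene, and open marks at 0 are genes that are not listed. Ptpn14 stands farthest to the right at 28.9 in the control ChIP, and Amotl2 has the largest Foxp1KspKO value, 8.41.

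The strongest entries belonged to proteins that bind Yap or stand upstream of the kinases. Ptpn14, on chromosome 1 from 189728216 to 189876695 (GRCm38), encodes a tyrosine phosphatase that binds Yap and restrains it. In the authors' deposited table its control p was 1.30e-29, rank 54 of 6799 genes, and its Foxp1KspKO p was 4.35e-04, rank 1264 of 4953. The gap between the libraries was 25.5 units of −log10 p, the widest of the 9 members in both lists. Ptpn14 was also in the unique control list, the 1 member there that the Foxp1KspKO list held as well. Its paralog Ptpn21 was in neither list.

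Amotl2, on chromosome 9 from 102717091 to 102733418, encodes an angiomotin-family protein that holds Yap at cell junctions. It had the lowest Foxp1KspKO p of the 38 genes, 3.91e-09 in the authors' deposited table, beside a control p of 5.68e-14. By rank within its list Amotl2 stood higher in the Foxp1KspKO ChIP, in the top 2.2% against the top 4.34% in the control ChIP, so the order of the libraries depends on whether p or rank is read. Amot and Amotl1, the other angiomotin genes, were in neither list.

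Frmd6 and Wwc2 followed in the control ChIP. Frmd6, on chromosome 12 from 70825456 to 70902234, encodes the FERM-domain protein Willin, which acts upstream of the kinases. It had p = 2.58e-13 in the authors' deposited control list and was not in the Foxp1KspKO list. Wwc2, a paralog of the scaffold gene Wwc1 (Kibra), had 4.05e-13 for the control and 0.0462 for the Foxp1KspKO library in the authors' deposited table. Wwc1 had 0.00333 in the authors' deposited control list alone. Nf2, which encodes the tumour suppressor merlin, was in neither list.

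The 250 bases before an annotated start of Ptpn14, Amotl2 and Frmd6 are shown because these genes had the lowest control p-values. The window of Yap1 was added after its values were seen, and that of Ajuba after the motif search, because of its matches. They come from RefSeq, GRCm38.p6, and are written 5′ to 3′ on the strand of the gene. The windows are chr1:189728018-189728267 (plus strand) for Ptpn14, chr9:102717554-102717803 (plus) for Amotl2, chr12:70825264-70825513 (plus) for Frmd6, chr9:8004597-8004846 (minus) for Yap1 and chr14:54577662-54577911 (minus) for Ajuba. A start is that of a transcript in the promoter table and need not be the end of the gene span given here. It lies 713 bases inside the span in Amotl2, whose window is therefore wholly within the gene span, 52 in Ptpn14, 58 in Frmd6 and 42 in Yap1, and at the end of the span in Ajuba. Capitals mark a match, on either strand (a match on the other strand shows as the reverse complement), to the Tead motif GGAATG or the forkhead motif TGTTTAC. The motifs do not overlap each other in these windows.
Ptpn14: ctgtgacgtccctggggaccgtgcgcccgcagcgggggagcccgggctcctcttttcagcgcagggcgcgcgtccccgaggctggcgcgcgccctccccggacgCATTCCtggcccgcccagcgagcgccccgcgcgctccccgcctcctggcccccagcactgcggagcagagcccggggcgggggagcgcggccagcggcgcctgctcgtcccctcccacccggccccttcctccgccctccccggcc
Amotl2: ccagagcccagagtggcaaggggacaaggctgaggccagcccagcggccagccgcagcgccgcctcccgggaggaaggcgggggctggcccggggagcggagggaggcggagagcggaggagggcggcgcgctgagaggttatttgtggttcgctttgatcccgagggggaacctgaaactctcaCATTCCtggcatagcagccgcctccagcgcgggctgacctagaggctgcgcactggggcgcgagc
Frmd6: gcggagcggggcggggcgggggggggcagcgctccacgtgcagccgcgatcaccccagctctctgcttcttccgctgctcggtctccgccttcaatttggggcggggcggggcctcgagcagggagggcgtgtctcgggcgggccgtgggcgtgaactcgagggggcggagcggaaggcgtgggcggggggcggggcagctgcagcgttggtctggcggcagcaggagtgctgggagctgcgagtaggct
Yap1: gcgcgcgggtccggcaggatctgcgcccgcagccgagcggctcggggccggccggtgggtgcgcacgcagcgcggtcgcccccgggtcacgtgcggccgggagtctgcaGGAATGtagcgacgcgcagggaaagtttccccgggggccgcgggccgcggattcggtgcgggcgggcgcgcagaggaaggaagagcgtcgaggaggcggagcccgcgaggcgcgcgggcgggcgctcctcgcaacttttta
Ajuba: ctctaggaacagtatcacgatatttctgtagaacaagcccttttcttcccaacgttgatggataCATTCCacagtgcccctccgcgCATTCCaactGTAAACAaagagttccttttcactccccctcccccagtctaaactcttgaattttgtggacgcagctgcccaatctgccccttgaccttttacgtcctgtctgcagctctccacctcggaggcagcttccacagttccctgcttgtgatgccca

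A promoter entry was found for 32 of the 38 genes. A Tead motif lay in the window of 15 of them (46.9%), against 13.5% of 17491 protein-coding genes with an entry. Some genes have several annotated starts and so more chances of a match. With the first window of each gene alone the figures were 46.9% and 11.6%, and among genes with 1 window they were 44.4% (12 of 27) and 11.6%. The motif was found in 11 of 19 members in either list (57.9%) and 4 of 13 members in neither list (30.8%), whereas in all protein-coding genes the shares were 12.6% and 14%. The match began 141 bases before the start in Yap1, 146 in Ptpn14 and 65 in Amotl2, counted to the farthest base, and Ajuba had a pair of matches, 164 and 186 bases before. Wwc2 had 3 matches in its window, and Frmd6, Lats1 and Fat4 had none. The forkhead motif was found in Ajuba alone among the 32 (3.12%, against 3.04% of all), 148 to 154 bases before the start. These are matches of letters near a start, and the lists give no position of binding.

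The same windows were rich in CpG. The median count was 20.5 CpG per window in the 32 members and 10 in all protein-coding genes, and it was 21 in members of either list and 20 in members of neither. Among protein-coding genes with 20 or more CpG in the window, 40.2% were in the control list, and 11 of the 18 members of that kind were (61.1%). With fewer CpG the figures were 25.5% and 7 of 14 (50%). The Foxp1KspKO list held 4 of the 18 members with 20 or more CpG (22.2%), against 27.5% of all such genes, and 4 of the 14 with fewer (28.6%), against 18.8%. In the unique list the shares were 44.4% against 20.5% with 20 or more CpG and 21.4% against 13.3% with fewer. The CpG limit was chosen after the data were seen, and the part of CpG content in the listing of the members was not tested.

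**Figure D3:**
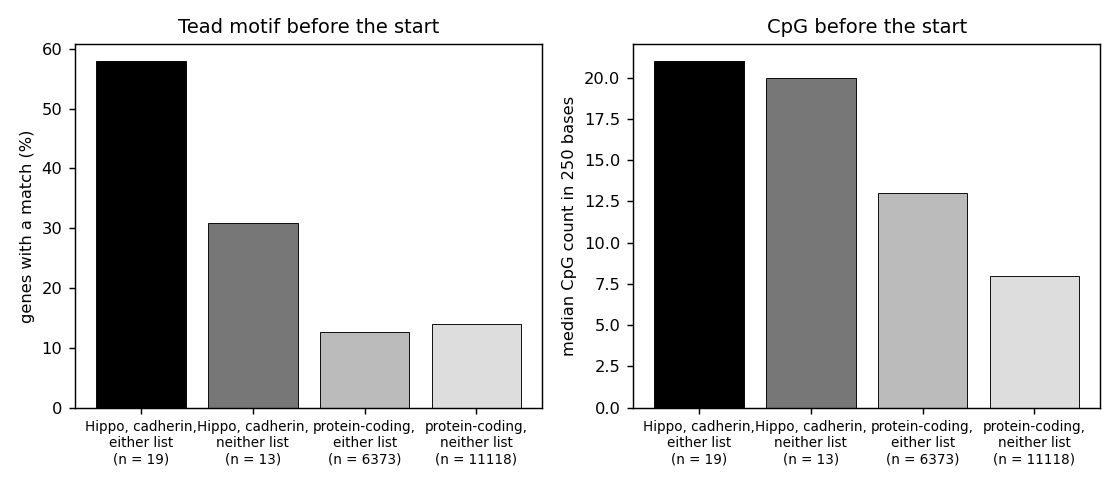
Left, share of genes with a Tead motif match in the 250 bases before an annotated start, in percent; right, median CpG count in that window, for the Hippo pathway and cadherin genes (black, dark grey) and for all protein-coding genes (light greys), each split by whether the control or Foxp1KspKO list holds the gene. The tallest bar on the left is 57.9% of the 19 listed members, and the remaining bars are at 30.8%, 12.6% and 14%.

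The genes of both coactivators were in the control list (100%, against 29.0% of all protein-coding genes) and the unique list (100%, against 15.1%). Neither of these 2 genes was in the Foxp1KspKO list, which held 20.9% of all protein-coding genes. Wwtr1 (Taz), on chromosome 3 from 57455644 to 57575910, had p = 2.18e-09 in the authors' deposited control list, rank 665. Yap1, on chromosome 9 from 7931999 to 8004638, had 1.28e-07 in the authors' deposited control list, rank 1004. Wwtr1 therefore lay in the top 9.78% and Yap1 in the top 14.8% of that list.

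The Tead genes, which encode the DNA-binding partners of Yap and Taz, were each in at least 1 list but divided between them. Of protein-coding genes as a whole, 63.4% were in neither list. The control list held 2 of the 4 Tead genes (50%, against 29.0%) and the Foxp1KspKO list 3 (75%, against 20.9%). The background shares were 13.2% for both lists, 15.7% for the control list alone and 7.64% for the Foxp1KspKO list alone. Tead2 was in both, with 2.66e-07 for the control and 0.00171 for the Foxp1KspKO library in the authors' deposited table. Tead3, in the control and the unique list, had 0.0410 in the authors' deposited table, rank 6515 of 6799. Tead1 and Tead4 were in the Foxp1KspKO list alone, at 5.82e-04 and 0.00503 in the authors' deposited table.

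Vgll proteins compete with Yap and Taz for Tead factors or bind them as cofactors. The control list held all 3 Vgll genes of the set (100%, against 29.0% of all protein-coding genes). Vgll1, looked up among the other genes of the pathway, was in neither list. Vgll4, a repressor of Tead activity, had 5.80e-06 for the control and 5.60e-04 for the Foxp1KspKO library in the authors' deposited table. Vgll2, known from skeletal muscle, had 6.56e-04 in the authors' deposited control list and no Foxp1KspKO value. Vgll3 stood higher in the Foxp1KspKO list, where the authors' deposited table gave 7.18e-05, against 0.00887 for the control.

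In the core kinase cassette the control list held 3 of 7 genes (42.9%, against 29.0% of protein-coding genes as a whole) and the Foxp1KspKO list 2 (28.6%, against 20.9%). Stk3, the gene of the kinase Mst2, was in both, with 2.89e-06 for the control and 3.74e-04 for the Foxp1KspKO library in the authors' deposited table, and its paralog Stk4 was in neither. Lats1 and Lats2 had p-values close to each other, 0.00580 and 0.00553 in the authors' deposited control list, and neither was in the Foxp1KspKO list. Both stood in the lower part of the control list, at ranks 4420 and 4379. Mob1a, whose product is a cofactor of the Lats kinases, showed the opposite listing, with 9.40e-06 in the authors' deposited Foxp1KspKO list, rank 480, and no control value. Mob1b and Sav1 were in neither list. Whether reads were divided between Mob1a and its close paralog Mob1b is not given.

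Of the Taok kinase genes, whose products can phosphorylate Mst kinases, Taok3 was in the control and unique lists (1.67e-05 in the authors' deposited table), while Taok1 and Taok2 were in neither list. Ajuba and Limd1 encode LIM-domain proteins that bind Lats kinases. Ajuba, on chromosome 14 from 54567469 to 54577661, had 9.72e-10 in the authors' deposited control list, rank 620, with no Foxp1KspKO value, and Limd1 was in neither list.

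Of the 6 giant cadherin genes, Fat4 and Dchs1 were in both lists and the other 4 in neither. The share of 33.3% in each list stands against 29.0% and 20.9% of all genes. Over all protein-coding genes, 13.2% were in both lists and 63.4% in neither. The 4 of 6 in neither list were thus near the share of all genes. Fat4, on chromosome 3 from 38884667 to 39011992, had 7.32e-07 for the control and 0.00262 for the Foxp1KspKO library in the authors' deposited table. Dchs1, on chromosome 7 from 105752989 to 105788355, which encodes the partner of Fat4 on the neighbouring cell, had 1.11e-04 for the control and 5.60e-06 for the Foxp1KspKO library in the authors' deposited table. Fat4 thus had the lower p in the control ChIP and Dchs1 in the Foxp1KspKO ChIP, and by rank the order was the same for each. Neither gene was in the unique list. Fat1, Fat2, Fat3 and Dchs2 were in neither list. Fat3, at 592 kb, is the longest of the 38 genes.

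Of the target genes, Ccn1 (Cyr61), on chromosome 3 from 145646971 to 145649985, had 1.10e-08 in the authors' deposited control list, rank 777, and was absent from the Foxp1KspKO list. It was nevertheless not in the unique control list. Ccn2 (Ctgf), a target of the same coactivators, was in neither list.

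Among the 9 genes in both lists, 7 had the lower p in the control ChIP (77.8%) and 2, Vgll3 and Dchs1, in the Foxp1KspKO ChIP. Over all 2899 protein-coding genes in both lists 72.2% had the lower p in the control ChIP, so the members' count was near that of all genes. The median difference, control minus Foxp1KspKO, was 3.55 units of −log10 p for the 9 genes and 1.36 for all. By rank within each list 6 of the 9 (66.7%) stood higher in the control ChIP, against 58% of all, the gene that changed sides being Amotl2.

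**Figure D4:**
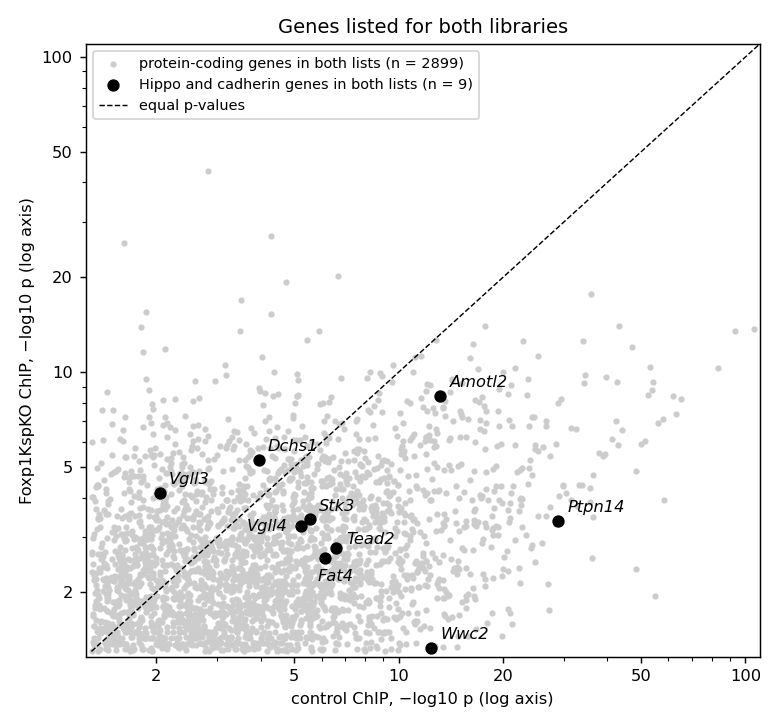
−log10 of the deposited p-value in the control ChIP (horizontal) and in the Foxp1KspKO ChIP (vertical), both on log axes, for the 2899 protein-coding genes in both lists (grey) and the 9 Hippo pathway and cadherin genes among them (black, named). Vgll3 and Dchs1 lie above the dashed line of equal p-values and the other 7 genes below it, with Ptpn14 and Wwc2 farthest from it.

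The members are long genes, with a median length of 73.2 kb against 17.1 kb for all protein-coding genes, and the share of genes listed was larger among long genes. Among genes of 50 kb or more, 39.1% of all and 12 of 24 members (50%) were in the control list. Among genes under 50 kb the shares were 26.0% of all and 8 of 14 members (57.1%). In the Foxp1KspKO list they were 24.9% and 33.3% for the longer genes and 19.7% and 28.6% for the shorter ones. Within the set, the median length was 72.6 kb in the 23 listed genes and 81.4 kb in the 15 others. The part of gene length in the listing was not tested beyond this split, which was chosen after the data were seen.

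Another 73 genes of the pathway, taken from general knowledge of it at a time when earlier results of these lists were known, were looked up in the same lists. By symbol the control list held 35 of them, the Foxp1KspKO list 23 and the unique list 16, and 18 were in both of the first (24.7%, against 13.2%). The polarity gene Pals1, entered under its older symbol Mpp5, brings the control count to 36 (49.3%, against 29.0% of all protein-coding genes) and the unique count to 17 (23.3%, against 15.1%). The Foxp1KspKO share was 31.5%, against 20.9%. At p under 0.001 it was 8.22% (6 genes), near the 6.61% of all genes. The control share at that limit was 21.9% (16 genes), against 14.2%, by symbol and so without Pals1, which was also under it. Mink1, a kinase that can phosphorylate Lats proteins, had 4.87e-20 for the control and 2.83e-08 for the Foxp1KspKO library in the authors' deposited table. Llgl1, a cell polarity gene, had 2.00e-11 for the control and 6.30e-05 for the Foxp1KspKO library in the authors' deposited table, and Pals1 had 3.36e-14 in the authors' deposited control list alone.

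Of the 18 other genes used as Yap and Taz targets, the control list held 8 (44.4%, against 29.0% of all genes) and the Foxp1KspKO list 5 (27.8%, against 20.9%). The lowest p-values belonged to Arhgef17 (9.65e-08) and Crim1 (2.73e-07) in the authors' deposited control list, and neither gene had a Foxp1KspKO value. Of 7 further genes linked to Fat and Dachsous or to planar cell polarity, 4 were in both lists (57.1%, against 13.2% of all genes). Vangl1, a planar polarity gene, had 5.78e-06 for the control and 2.06e-05 for the Foxp1KspKO library in the authors' deposited table. Celsr1 and Celsr2, which encode flamingo cadherins, had control p-values of 2.48e-05 and 0.00623 and Foxp1KspKO p-values of 0.00745 and 0.00341 in the authors' deposited table. Fjx1, the gene of a Golgi kinase related to the fly regulator of Fat and Dachsous binding, had 0.00270 for the control and 0.00189 for the Foxp1KspKO library in the authors' deposited table. None of these 4 was in the unique list.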

How the data were processed

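The authors deposited 3 lists of genes with a p-value per gene, per the file headers. Which test gave them, against which library, over which region and with what correction is not given in the sources used here. Tools named in the submitters' processing notes are edgeR, deepTools, Bowtie2, Trimmomatic and FastQC, with builds mm10 and GRCm38 and no version or role. Lists were matched to libraries by sheet name and sample description. The 38 genes were found by symbol, with the lowest p kept, and all genes by NCBI gene number against RefSeq GRCm38.p6. The 38 genes, the roles and the 73 other pathway genes were chosen with earlier results of these data known. Planned were counts, medians and deposited p-values of every member, with other pathway genes named under 1e-06 or in the Fat and Dachsous group; no test was made. Adjusted p-values (Benjamini-Hochberg) put unlisted genes at 1. Motifs were searched in the 250 bases before each start. Tied p-values were held by 67.2% of control and 61% of Foxp1KspKO genes. The Benjamini-Hochberg step was tested on simulated p-values, and the motif search on simulated sequences holding the forkhead motif. Python 3.11.15, pandas 2.3.3, numpy 2.4.6, SciPy 1.17.1 and matplotlib 3.10.9 were used.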

Additional observations from a re-analysis of the deposited data

How the results depend on the processing

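Of 33 alternatives, 23 left the count or median within 1.5 times and 10 did not. Matching by NCBI gene number gave the same counts for the 38 genes and 36 in place of 35 for the other pathway genes in the control list. With a Benjamini-Hochberg adjusted p under 0.05 over all protein-coding genes, 19 control and 11 Foxp1KspKO members stayed, Tead3 and Wwc2 dropping out. At p under 0.001 the unique list held 7 members (18.4%, against 5.96% of all protein-coding genes). Both lists held 5 (13.2%, against 3.69%), and 4 of those had the lower p in the control ChIP. Of the other pathway genes, by symbol and so without Pals1, the control list held 16 (21.9%, against 14.2% of all genes). The Foxp1KspKO list held 6 of them (8.22%, against 6.61%). A further alternative left out genes whose exact p another gene of the list shares. It left 11 of 20 members listed for the control, 4 of 12 for the Foxp1KspKO library and 7 of 11 in the unique list. In both lists it left 2 of 9, of which 2 had the lower p in the control ChIP. The share of all protein-coding genes left by this step is not given here. Tied p-values were held by 67.2% of all genes in the control list, 61% in the Foxp1KspKO list and 57.8% in the unique list. This alternative and the stricter limit both remove genes by construction. No paired analysis was possible because each group holds 1 library. Unknown depth limits every comparison between the lists.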

Other observations

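Among the 32 members with a promoter entry, 3 had another gene's start within 1 kb, each on the opposite strand. Lats1 and Pcmt1, which encodes a protein repair methyltransferase, have starts 51 bases apart. Lats1 was in the control list and Pcmt1 was in neither list. Fat4 and the long noncoding gene C230034O21Rik have starts 21 bases apart, and Ccn1 and the long noncoding gene Gm17501 have starts 92 bases apart. In both pairs the coding gene was listed for the control ChIP, Fat4 for the Foxp1KspKO ChIP as well, and the noncoding one was in neither list. The share of all noncoding genes in the lists is not given here. The deposited lists thus give 1 gene of each pair, and how a region near both starts was assigned is not given.

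Several members had exactly the p-value of other genes. In the authors' deposited control list Wwtr1 shared its value with 1 other gene and Lats1 with 4, and in the Foxp1KspKO list Tead4, Stk3 and Fat4 each shared theirs with 3. For Stk3, 1 of the 3 lay on its own chromosome. Tead1 in the Foxp1KspKO list and Dchs1 in the control list each shared theirs with 1 gene, which lay on the same chromosome. Ptpn14 and Amotl2 shared theirs with none in either list.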
